A study of Mus musculus with 8 samples.

Results

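A set of liver and gut miRNAs was followed in the small RNA of mouse sperm: mmu-miR-122-5p, mmu-miR-192-5p, mmu-miR-194-5p and mmu-miR-215-5p. They are all of the rows named miR-122, miR-192, miR-194 or miR-215, 4 of the 387 mature miRNAs listed. The study sequenced 8 sperm samples from C57BL/6 mice 2 months old, all labelled F0, in 2 groups of 4 named Exposed and Trained, and concerned treatments related to smell. The labels say nothing more of either treatment, and the heading of the deposited table calls the second group AceTrained. No untreated group was analysed here, and the labels leave unsaid whether the samples are single animals, pools or repeats, so p-values reflect spread between samples that may be only technical. The members were selected on measured values: miR-122-5p was chosen by the authors' result, since the authors' deposited table gave it the smallest p-value of the Trained against Exposed comparison. The values of that comparison are therefore given as a description and support nothing by themselves.

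miRNAs are short RNAs that guide Argonaute proteins to messenger RNAs, mostly through pairing of the seed, bases 2 to 8 of the mature strand. miR-122 is the hallmark miRNA of hepatocytes, where it regulates cholesterol and lipid metabolism and is by far the dominant miRNA. miR-192, miR-194 and miR-215 are abundant in liver, intestinal epithelium and kidney, and their genes are known targets of hepatocyte nuclear factors. Each genomic cluster pairs a copy of the miR-194 gene with either miR-192 or miR-215, so that one transcript can give both products.

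The mature sequences are shown, from RefSeq on GRCm38.p6 and 5′ to 3′ with the seed in capitals, because they separate which members could act on the same targets and which reads could be confused.
miR-192-5p: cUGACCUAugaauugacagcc
miR-215-5p: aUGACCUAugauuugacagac
miR-194-5p: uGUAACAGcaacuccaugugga

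miR-192-5p and miR-215-5p share the seed UGACCUA and are identical at 18 of 21 positions. Counted from the 5′ end of miR-192-5p, the differences are C1A, A12U and C20A, of which none lies in the seed. Among the 310 listed miRNAs with an entry in the sequence table used no other miRNA had the seed UGACCUA, and miR-194-5p was alone with GUAACAG. How the authors' counting treated reads with a mismatch is not given in the sources used here, so the 21 reads of miR-215-5p are uncertain against the 7263 of miR-192-5p.

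miR-192-5p is encoded by 1 hairpin, Mir192, on the plus strand of chr19:6264844-6264932. Mir194-2 lies 115 bases upstream at chr19:6264643-6264728, and no other annotated gene overlaps either hairpin in GENCODE M21. The other copy, Mir194-1, is at chr1:185313319-185313385, and Mir215 follows 195 bases further on at chr1:185313581-185313692. Both lie on the strand opposite to Iars2, within an intron of it. Both also lie within the antisense gene 2010103J01Rik, Mir215 in its exon 2 and Mir194-1 in an intron. The miR-194 hairpins are printed because they differ in their flanks and loops but give the same mature strand, here in capitals, so counts of miR-194-5p cannot be split between the chr19 and chr1 clusters.
Mir194-2: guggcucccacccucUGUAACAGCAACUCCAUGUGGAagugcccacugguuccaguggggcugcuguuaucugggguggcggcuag
Mir194-1: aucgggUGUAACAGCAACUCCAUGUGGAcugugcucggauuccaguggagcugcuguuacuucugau

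All 4 members are 5p arms. The 3p arms that would tell the miR-194 copies apart, miR-194-1-3p and miR-194-2-3p, were not listed, nor were miR-192-3p and miR-215-3p.

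The members differed in abundance by orders of magnitude. miR-192-5p held 7263 reads over the 8 libraries, place 49 of 387, and 94.4% of the reads of the 4 members together. miR-194-5p held 391 reads, place 137. miR-215-5p held 21 reads, place 320, and miR-122-5p held 16, place 349, with 33 listed miRNAs below it. Together the members took 0.402% of all reads. Levels are given as CPM, the read count scaled to the library total. Reads of mature miRNAs span the whole molecule, so no correction for length was made. Levels of different miRNAs are compared as shares of reads, and how reads relate to numbers of molecules was not measured.

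**Figure D1:**
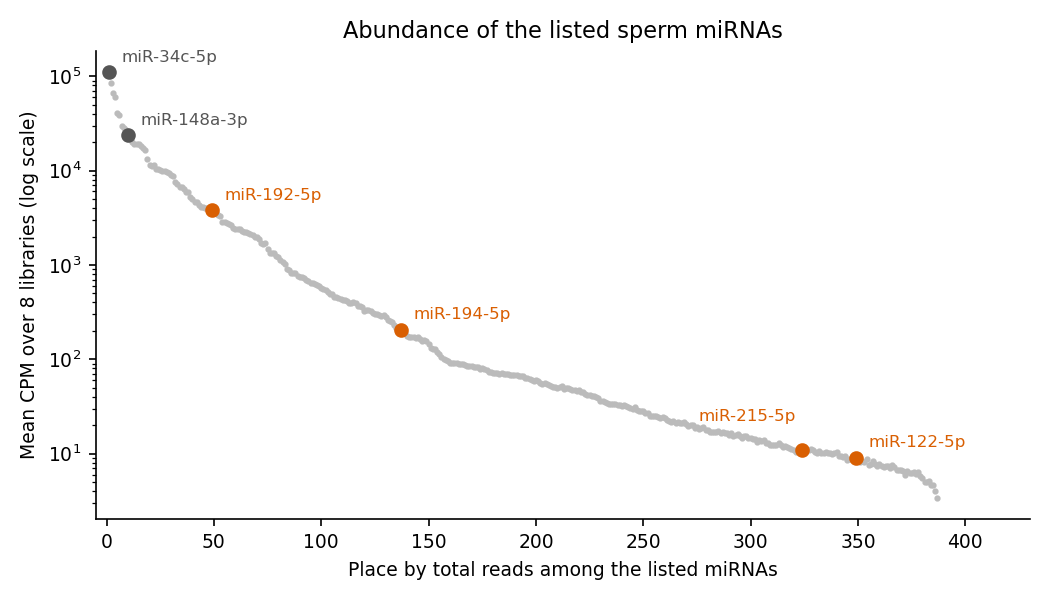
Mean CPM over the 8 libraries (log scale) against place by total reads for the 387 listed miRNAs. The 4 members are in orange, and miR-34c-5p (110702 CPM) and miR-148a-3p (23753 CPM) are in grey for scale. miR-192-5p sits at place 49, miR-122-5p at place 349.

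The order of the levels held in part within every library. miR-192-5p stood above miR-194-5p in all 8 libraries, and the lowest level of miR-194-5p, 141 CPM, was above the highest of miR-215-5p, 23.9 CPM, and of miR-122-5p, 38.3 CPM. miR-215-5p and miR-122-5p, at means over 8 libraries of 10.9 and 9.05 CPM, did not differ beyond their spread.

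The liver label rests on miR-122-5p, which had 0 to 8 reads in a library. Of 6 miRNAs named as liver markers 4 were listed. miR-122-3p and miR-802-5p were not listed. The most abundant of the liver list was miR-148a-3p, a widely expressed miRNA, with 23513 ± 3484 CPM in Exposed against 23994 ± 2837 CPM in Trained (SD, n = 4). Of 7 miRNAs named for gut and kidney epithelium 3 were listed, all of them members. All 9 named miRNAs of male germ cells were listed, and their summed level lay between 286598 and 340971 CPM in the 8 libraries.

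Depth set what could be seen of the rare members. Library totals ran from 193013 to 261903 reads assigned to listed miRNAs, and 3 reads, the limit that a count of 0 allows (one-sided, 95%), corresponded to 11.5 to 15.5 CPM. The two-sided exact 95% intervals printed and plotted for single libraries reach somewhat higher. Intervals and these floors cover counting error only, since no molecular identifiers are described for these reads.

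miR-122-5p had 0, 8, 3 and 2 reads in Exposed 1 to 4. In Trained 1 to 4 it had 1, 1, 0 and 1 reads. Exposed 2 was the high library, with 61.5% of the Exposed reads, and the groups overlapped, since Exposed 1 had no read. Scaled by library total, Exposed 2 stood at 38.3 CPM (exact 95% counting interval 16.5 to 75.5). Exposed 3 and Exposed 4 stood at 11.8 and 10.4 CPM, and the Trained libraries with a read at 3.84 to 4.17 CPM. By that limit a count of 0 allowed up to 12.4 CPM for Exposed 1 and up to 11.5 CPM for Trained 3. Their exact two-sided intervals, which end at 15.3 and 14.1 CPM, overlapped those of every library but Exposed 2. The interval of Exposed 2 overlapped those of all other libraries with a read, which end between 21.4 CPM (Trained 2) and 37.4 CPM (Exposed 4).

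Pooled over libraries, 13 reads in Exposed gave 14.5 CPM and 3 reads in Trained gave 2.96 CPM. The ratio of Trained to Exposed was 0.205, with an exact counting interval of 0.0374 to 0.745. That interval leaves out the spread over the 8 libraries. For miR-122-5p this spread, the difference between the groups included, was 4.10 times the variance that counting alone gives. The median was 1.07 over all 387 miRNAs (quartiles 0.504 and 4.73). It was 2.94 over the 226 with enough reads to pass the count filter given below (quartiles 0.916 and 13.1). The value was thus higher among miRNAs with more reads, and the quartiles over all 387 do not place miR-122-5p among miRNAs of its own depth. For miR-215-5p, with 21 reads, it was 1.03. Without Exposed 2, 5 Exposed reads and 3 Trained reads remained and the ratio was 0.409 (0.0635 to 2.10). Per library the level was 15.1 ± 16.3 CPM in Exposed (SD, n = 4), an SD larger than the mean, and 0 to 4.17 CPM in Trained. The authors' deposited table gave miR-122-5p a log2 fold change of -1.98, a p-value of 0.000175 and an FDR of 0.0676, the first of 387 by p-value. There, of 387 miRNAs, 0 (0%) passed FDR 0.05 in the authors' deposited table and 20 (5.17%) had an unadjusted p under 0.05.

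Exposed 2 stood at an end of most marker lists. For the tissues of the members it was the lowest of the 8 libraries, with a summed level of 23844 CPM for the liver list, against 24522 to 31386 CPM in the others, and of 3609 CPM for the gut and kidney list, against 3725 to 4334 CPM. These sums are carried by miR-148a-3p and miR-192-5p and do not speak for the other members. In Exposed 2 miR-122-5p, miR-194-5p (244.1 CPM) and miR-215-5p (23.9 CPM) were each at their highest of the 8 libraries. The library held the highest summed level of the general epithelium list (7 of 7 listed) at 27669 CPM, against 20282 to 23128 CPM in the other Exposed libraries and 15342 to 24032 CPM in Trained. It also held the highest level of the smooth muscle and stroma list (5 of 7 listed), 15491 CPM. The other Exposed libraries were at 8051 to 10307 CPM and Trained at 7323 to 8580 CPM. In Exposed 2 miR-143-3p made up 15189 CPM of the sum, while miR-199a-3p was highest in another library. The striated muscle list (4 of 7 listed) was at 3078 CPM in Exposed 2, against 1736 to 2121 and 1298 to 1853 CPM. Its miRNAs did not move together. In Exposed 2 miR-1a-3p (1800 CPM), miR-206-3p (694 CPM) and miR-133a-3p (71.8 CPM) were at their highest of the 8 libraries. By contrast miR-499-5p, at 512 CPM, was at its lowest. Red blood cell miRNAs (5 of 7 listed) were near their lowest in Exposed 2, at 445 CPM, and highest in Trained 3, at 19675 CPM. Over all libraries that list ran from 445 to 7507 CPM in Exposed and from 445 to 19675 CPM in Trained, and the leukocyte list (7 of 9 listed) from 2283 CPM, in Exposed 2, to 6139 CPM and from 2770 to 9442 CPM. The part of these sources in the miR-122-5p reads was not tested. In bulk samples, fewer cells of a type and less RNA per cell cannot be told apart.

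miR-192-5p, the member that was well measured, stood at 4006, 3341, 4177 and 3528 CPM in Exposed 1 to 4. In Trained 1 to 4 it stood at 3677, 4089, 3780 and 3643 CPM. The Trained values lay inside the Exposed range, and the highest library exceeded the lowest by a factor of 1.25. The group means were 3763 ± 393 CPM in Exposed and 3797 ± 203 CPM in Trained (SD, n = 4). The fit across all tested miRNAs, edgeR's quasi-likelihood test, gave a log2 fold change, Trained over Exposed, of -0.02 (SE 0.11, 95% interval -0.27 to 0.23, FDR = 0.998). Its sign turned with library totals alone (0.01) and without Exposed 1, Exposed 3, Trained 1 or Trained 3 (0.01 to 0.05).

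miR-194-5p, its cluster partner, stood at 177.8, 244.1, 141.2 and 196.9 CPM in Exposed 1 to 4, from 43, 51, 36 and 38 reads. In Trained 1 to 4 it stood at 235.6, 191.8, 221.5 and 233.7 CPM, from 59, 50, 58 and 56 reads. The groups overlapped: Exposed 2 was the highest of all 8 libraries and Exposed 3 the lowest. The Exposed mean was 190 ± 42.8 CPM, the Trained mean 221 ± 20.2 CPM (SD, n = 4), and the log2 fold change was 0.19 (SE 0.18, 95% interval -0.21 to 0.58, FDR = 0.998 by edgeR). It was 0.34 without Exposed 2 and 0.08 without Exposed 3, and stayed above 0 without any 1 library.

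miR-215-5p, which shares the seed of miR-192-5p, had 1, 5, 4 and 0 reads in Exposed 1 to 4 and 3, 3, 2 and 3 reads in Trained 1 to 4. The Trained counts lay within the Exposed range. Pooled levels were 11.1 CPM in Exposed and 10.9 CPM in Trained, a ratio of 0.976 with an exact counting interval of 0.376 to 2.56. A change of 2-fold in either direction lay within that interval. Its spread between libraries was 1.03 times the counting variance.

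**Figure D2:**
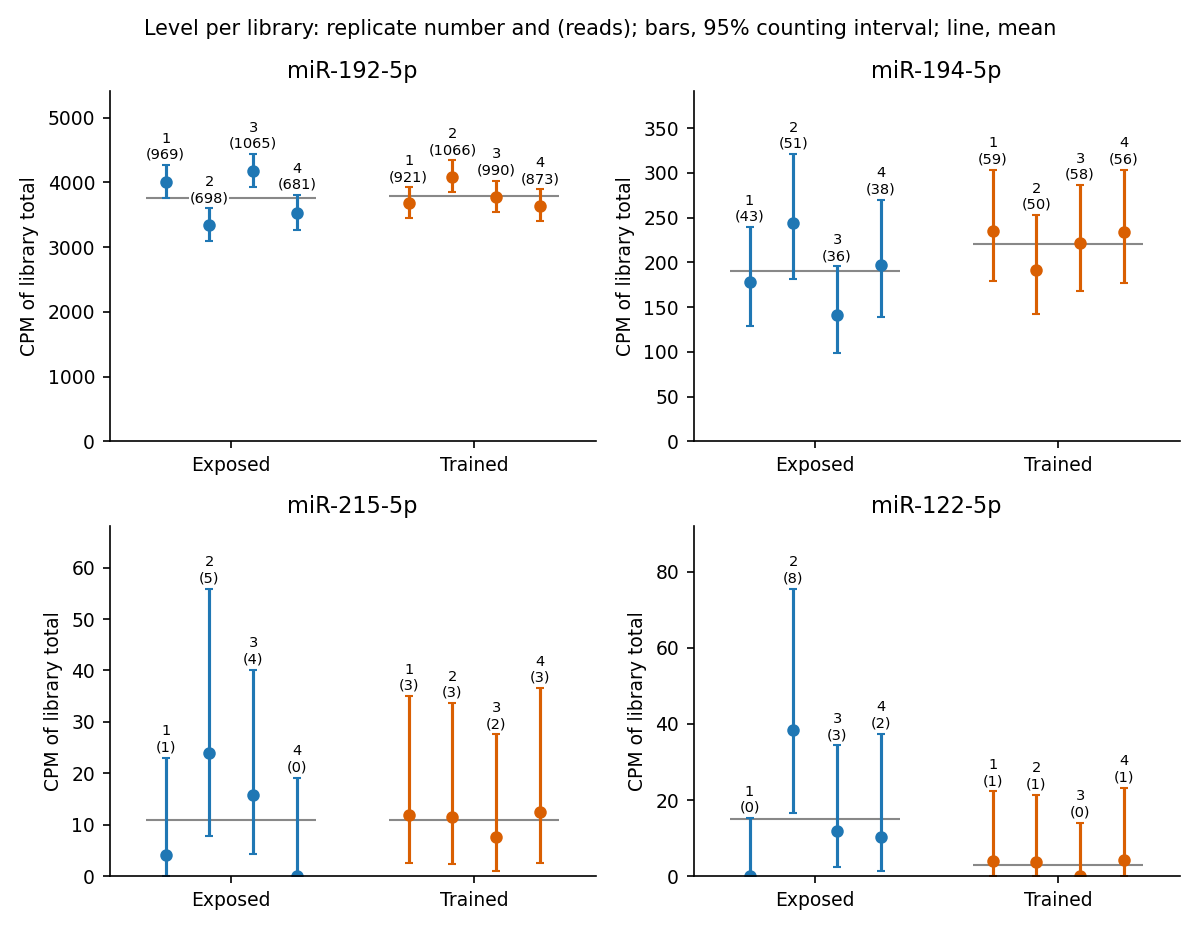
CPM of the 4 members in each library of both groups, with exact 95% counting intervals, replicate numbers and reads in brackets, and the group mean as a grey line; the vertical axes differ. The groups overlap in every panel, and Exposed 2 is the highest library for miR-194-5p, miR-215-5p and miR-122-5p but the lowest for miR-192-5p.

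Of the 4 members, 2 passed edgeR's default count filter (miR-192-5p and miR-194-5p) and 2 did not. Of the 226 miRNAs that passed, 0 (0%) had an FDR under 0.05 by the quasi-likelihood test and 10 (4.42%) an unadjusted p under 0.05. By DESeq2 0 (0%) passed FDR 0.05 and 12 (5.31%) had an unadjusted p under 0.05. By limma-voom the counts were 0 (0%) and 8 (3.54%). With no filter, the quasi-likelihood test gave 0 of 387 (0%), with 18 (4.65%) at an unadjusted p under 0.05. In that fit miR-122-5p had a log2 fold change of -2.12 (95% interval -4.27 to 0.03, FDR = 0.998) and miR-215-5p one of -0.04 (-1.45 to 1.37, FDR = 0.998). None of the members was called in any of these fits. Of the tested liver list, 1 miRNA had a fitted value above 0 and 2 below (median -0.0028 on the log2 scale), and of the gut and kidney list 1 was above and 1 below (median 0.08), with 0 past FDR 0.05 in both lists. Over all 226 tested miRNAs 117 were above 0 and 109 below, with a median of 0.0049.

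The ratio of miR-192-5p to miR-194-5p does not depend on library scaling. It was 22.5, 13.7, 29.6 and 17.9 reads of miR-192-5p per read of miR-194-5p in Exposed 1 to 4. In Trained 1 to 4 it was 15.6, 21.3, 17.1 and 15.6. Exposed held both the highest and the lowest ratio, and all Trained values lay between them. Over all reads the ratio was 18.6. The exact counting interval of Exposed 2 (10.3 to 18.6) did not overlap that of Exposed 3 (21.2 to 42.5), a difference in which both miRNAs took part, since Exposed 2 had the lowest miR-192-5p and the highest miR-194-5p.

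On the log2 scale, with 0.5 read added to each count, the mean ratio was 4.31 ± 0.47 in Exposed and 4.10 ± 0.21 in Trained (SD, n = 4). The difference, -0.22, was smaller in size than the SD in Exposed and slightly larger than the SD in Trained. It was -0.03 without Exposed 3 and -0.40 without Exposed 2. Over the 8 libraries the SD was 0.36, against 0.22 from counting alone. The Trained SD of 0.21 was at the level of counting, and the Exposed SD of 0.47 was above it.

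**Figure D3:**
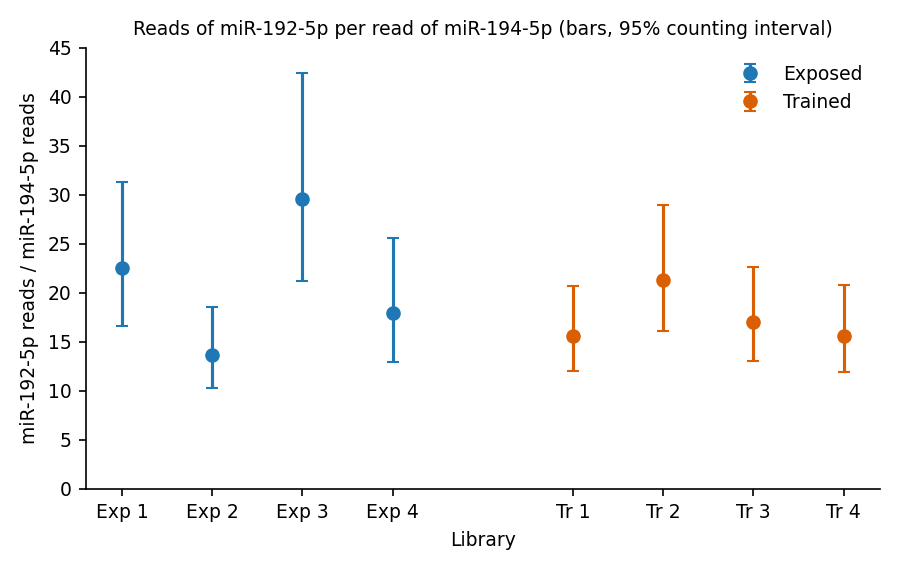
Reads of miR-192-5p per read of miR-194-5p in each library (Exp, Exposed; Tr, Trained), with exact 95% counting intervals. The ratio runs from 13.7 in Exposed 2 to 29.6 in Exposed 3, and the 4 Trained libraries lie between 15.6 and 21.3.

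To see which miRNAs followed the members from library to library, the likeness of a pair was measured as the SD over 8 libraries of their log2 read ratio, a smaller SD meaning a closer match. miR-194-5p took place 153 of 225 by likeness to miR-192-5p, with an SD of 0.36 against a median of 0.27, so 67.6% of the tested miRNAs matched miR-192-5p more closely than its cluster partner did. Among the 44 miRNAs with a total count within 2 times that of miR-194-5p, a comparison chosen after seeing the data, it took place 25, with a median SD of 0.35. Against miRNAs of like depth its match to miR-192-5p was thus near the middle.

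The 5 miRNAs closest to miR-192-5p were miR-743a-5p (SD 0.04), miR-743b-5p (0.05), miR-465b-5p (0.05), miR-183-5p (0.05) and miR-465c-5p (0.07). Of these, miR-743a-5p, miR-743b-5p and both miR-465 members are encoded on the X chromosome, in a cluster known for expression in the testis, and miR-183-5p, a sensory organ miRNA, on chromosome 6. The miR-465 members are near-copies of each other, so the split of their reads is uncertain. miR-743a-5p was also near miR-192-5p in level, at 4113 CPM over 8 libraries with a range of 3595 to 4626 CPM, against 3780 CPM for miR-192-5p with a range of 3341 to 4177 CPM. Counting alone gives an SD of 0.07 for the pair of miR-743a-5p and miR-192-5p, so its match was as close as the depth can show, and the order among the first 4 cannot be read.

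The 5 closest to miR-194-5p were miR-195a-5p (SD 0.12), miR-28a-3p (0.14), miR-93-5p (0.14), miR-465a-5p (0.16) and miR-140-5p (0.16). Each SD was below the value that counting gives for its pair, 0.22 to 0.42, as can happen for the smallest of 225, so these pairs are not resolved. miR-192-5p took place 117 of 225 by likeness to miR-194-5p. All likeness values rest on 8 libraries that share depth and composition, and are a description.

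**Figure D4:**
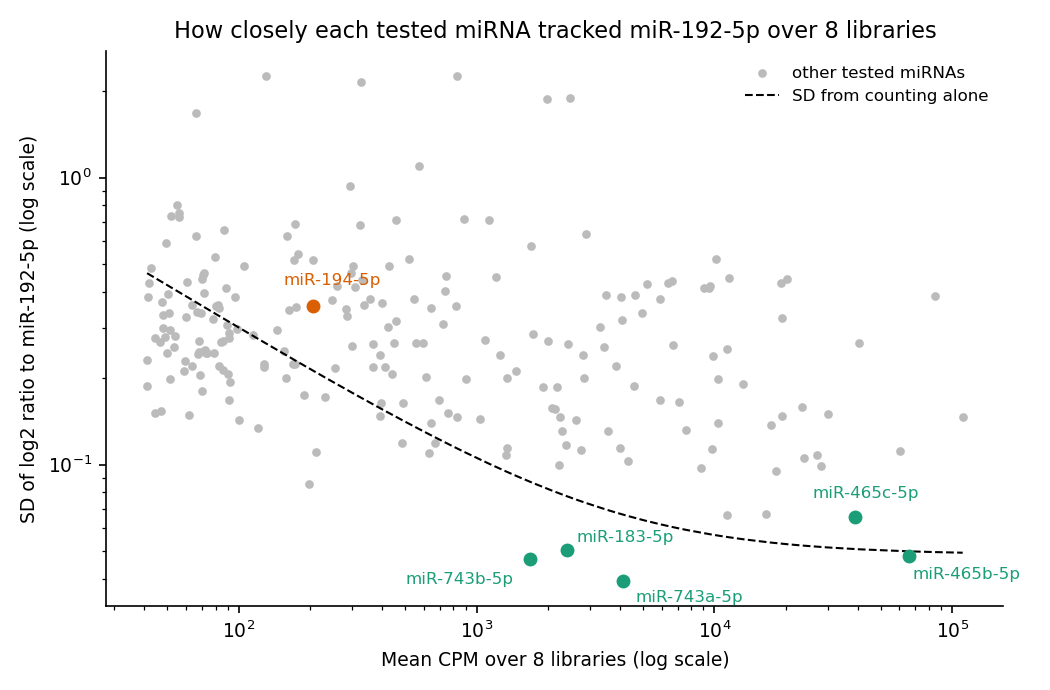
SD over 8 libraries of the log2 read ratio to miR-192-5p (log scale) against mean CPM (log scale) for the other 225 tested miRNAs; the dashed line is the SD that counting alone gives at that level. The 5 closest miRNAs are in green, at SDs of 0.04 to 0.07, and miR-194-5p is in orange at 0.36, above the counting line.

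The effect of single libraries on the group comparison differed by member. For miR-192-5p the log2 fold change stayed between -0.07 and 0.05 whichever library was left out. For miR-194-5p it lay between 0.08 and 0.34. For miR-122-5p the ratio of pooled levels lay between 0.150 and 0.409, the latter without Exposed 2, which was the only library whose loss moved it by over 1.5 times. The 4 members summed to 3979 ± 340 CPM in Exposed and 4032 ± 183 CPM in Trained (SD, n = 4), a difference smaller than either SD.

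**Figure D5:**
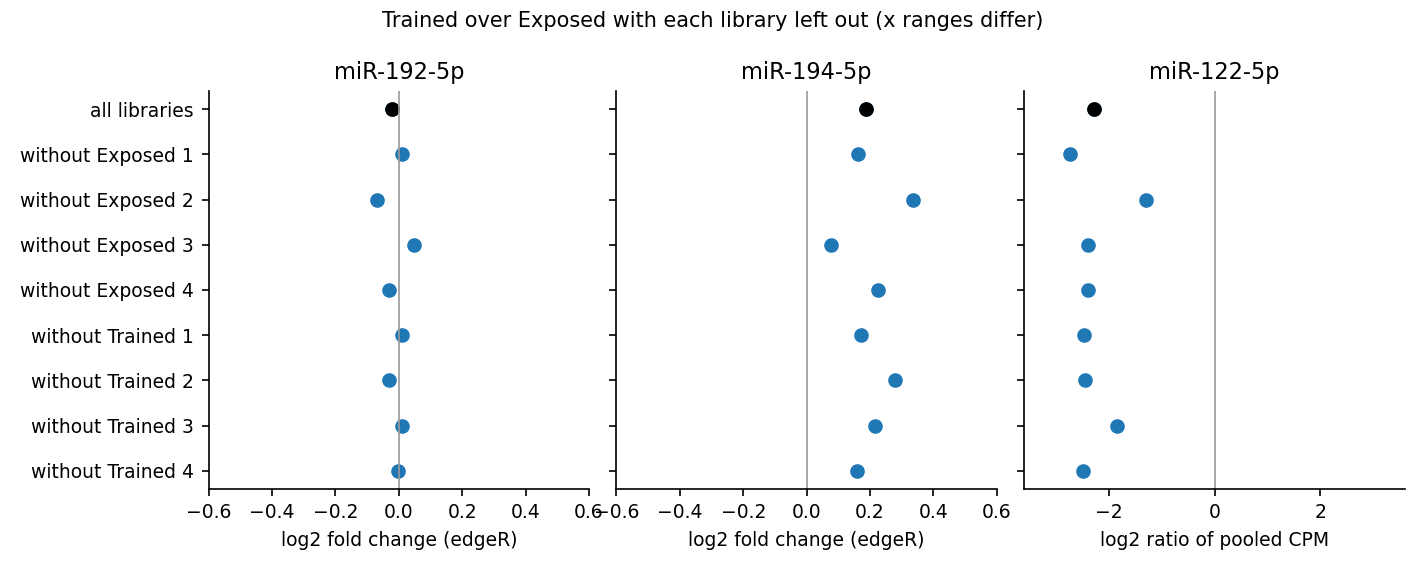
Trained over Exposed on the log2 scale with all libraries (black) and with each library left out in turn (blue), as the edgeR log2 fold change for miR-192-5p and miR-194-5p and as the log2 ratio of pooled CPM for miR-122-5p; the horizontal ranges differ. miR-192-5p stays near 0, miR-194-5p stays above 0, and miR-122-5p moves toward 0 without Exposed 2.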

How the data were processed

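The authors deposited raw read counts for each mature miRNA in 8 samples, from Qiagen miRNeasy RNA sequenced as 50 nt single-end reads, per the labels' protocols. The authors' deposited table also gives group means of counts (a score with no error here), log2 fold changes with log2 CPM, and FDR beside p-values. Per the submitters' processing notes edgeR was used, version unstated. The aligner, reference and any filter are not given in the sources.

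Levels are CPM (counts scaled to the library total). Trained was compared with Exposed by edgeR 4.0.16 (R 4.3.3): TMM factors, default filter by group (226 of 387 miRNAs kept), robust two-sided quasi-likelihood F tests and Benjamini-Hochberg adjustment over all tested miRNAs, checked on simulated data. Standard errors are the log2 fold change over the square root of F. Counting intervals are exact (Poisson for levels, Clopper-Pearson for ratios, 95%; scipy 1.17.1). Sequences were matched by name (310 of 387); that of miR-122-5p is not reported here. Alternatives used DESeq2 1.42.0 and limma 3.58.1. Same-numbered libraries were not treated as pairs in the main fit (correlation of deviations -0.41, 0.66, 0.69 and 0.49, against -0.78 to 0.60 for different numbers).

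The members, marker lists and tests were chosen with earlier results of these data known. Named miRNAs are the members, the 5 closest to miR-192-5p and to miR-194-5p, miRNAs within 2 reads of miR-122-5p in total count (described as a group, since many are tied), and the listed liver and gut markers. The most abundant of each other list were miR-375-3p for epithelium (19221 CPM), miR-3107-5p for red blood cells (2461 CPM), miR-146a-5p for leukocytes (2884 CPM), miR-1a-3p for striated muscle (889 CPM), miR-143-3p for smooth muscle and stroma (9071 CPM) and miR-34c-5p for germ cells (110702 CPM). The lists count older and newer names of the same miRNA separately.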

Additional observations from a re-analysis of the deposited data

Results flagged for a closer look

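miR-122-5p in Trained 3 stood at 0 CPM, apart from the other Trained libraries at 3.84 to 4.17 CPM; the gap was 0.919 of the range of the group. The difference is between no read and 1 read in each of the others, and 3 reads, the limit that a count of 0 allows, are 11.5 CPM there (upper end of the exact two-sided 95% interval 14.1 CPM). Of 12 groups of 4 values examined, 1 stood out. The chance rate of about 1 in 20 per group is for continuous values. With counts of only 0 and 1 in libraries of like size, the gap follows from the counts, so that rate does not apply here.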

How the results depend on the processing

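miR-192-5p had a log2 fold change of 0.0130 with library totals only and 0.0039 with no count filter, both of the other sign than -0.02, and from -0.0698 to 0.0491 when 1 library was left out. miR-194-5p kept its sign, at 0.14 with upper quartile scaling to 0.22 with library totals, and 0.08 to 0.34 with 1 library left out. The count of 0 miRNAs past FDR 0.05 held under all settings run on that fit. Fitted with a replicate block, the fold changes were -0.02 for miR-192-5p and 0.20 for miR-194-5p. In that quasi-likelihood fit 14 of 226 miRNAs (6.19%) had an unadjusted p under 0.05 and 0 (0%) passed FDR 0.05. The block changed no call. Same-numbered libraries gave correlations of -0.41, 0.66, 0.69 and 0.49, against -0.78 to 0.60 for libraries of different numbers. These values do not settle whether the numbers are pairs, and the main fit did not take them as such. With 1 library left out, the miR-122-5p ratio ran from 0.150 to 0.409, the difference in the log2 ratio of miR-192-5p to miR-194-5p from -0.40 to -0.03, the difference in summed CPM from -58.0 to 175, and the place of miR-194-5p from 114 to 167. With TMM library sizes the difference in summed CPM was -38.6 against 52.5 with totals.

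The p-value of miR-122-5p depended on the test. With no filter and all libraries, edgeR gave an unadjusted p of 0.0527 by quasi-likelihood, 0.0523 by the exact test, 0.0229 by likelihood ratio, and 0.0127 by the exact test with the dispersion set to 0, which leaves counting error alone. The authors' deposited table gave 0.000175, which none of these matched. The FDR of miR-122-5p over 387 miRNAs was 0.0849 or more in these tests, although the exact test gave 6 other miRNAs an FDR under 0.05 with a common dispersion and 52 with a dispersion of 0, and without Exposed 2 the unadjusted p was 0.203 or more. These tests were chosen after seeing the data, and the cause of the gap was not tested.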

Other observations

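The 26 listed miRNAs within 2 reads of miR-122-5p in total count, with 14 to 18 reads each, had 21.4% to 57.1% of their reads in Exposed (median 43.3%), against 81.3% for miR-122-5p; Exposed held 47.0% of all reads. Their highest library held 3 to 6 reads, against 8 for miR-122-5p. Of these 26 miRNAs, 4 had their highest count of the 8 libraries in Exposed 2, with ties given to the earlier library. Among the 4 was miR-200a-5p, the passenger strand of an epithelial miRNA, with 5 of 16 reads there. miR-122-5p was chosen for its difference between the groups, so these values are a description of miRNAs at this depth.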
